A study of Caenorhabditis elegans with 6 samples.

Results

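The 10 body shape collagens dpy-2, dpy-3, dpy-7, dpy-8, dpy-10, rol-6, sqt-1, sqt-3, bli-1 and bli-2 of Caenorhabditis elegans were examined in worms grown on the insecticide diazinon (DZN) and in control worms. They were chosen by name, as collagen genes known from mutants with a visibly altered body shape or cuticle, with earlier results of these data known. They are 10 of 17922 named genes with a probe on the arrays. Each was represented by 1 of the 22490 worm probes. The DZN worms were wild type N2 hatched from eggs placed on agar that held diazinon, an organophosphorus inhibitor of acetylcholinesterase, dissolved in acetone. The control worms were N2 raised alongside on agar with acetone alone. Both were fed Escherichia coli OP50, both were collected whole after 72 h at 16 °C, and per the study's methods each sample pooled several dishes. The stage is L3 to L4 in the sample annotation but L3 in the treatment protocol, and the dose is 1 mg/ml in the titles, 0.5 mg/ml in the protocol and a concentration per litre in the methods, so neither is settled here. Each of the 6 two-colour arrays held 1 DZN extract and 1 control extract, with DZN in the dye Cy5 on 3 arrays (DZN-Cy5 replicates 1 to 3) and in the dye Cy3 on the other 3 (DZN-Cy3 replicates 1 to 3), and per the series design the replicates were biological.

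The nematode cuticle is built largely of collagens that the hypodermis, the epithelium under the cuticle, makes anew before every moult. Collagen chains wind into triple helices, are trimmed by proteases and cross-linked outside the cell, and transcripts of many collagen genes come and go within each larval stage. Mutants are named by what they look like: dumpy (dpy) worms are short and fat, rollers (rol) are twisted along their length, squat (sqt) worms are shortened, and blistered (bli) worms have fluid-filled swellings of the adult cuticle.

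A probe was counted as above background where it was brighter than its local background by more than 2 SD of that background. By this measure 49.7% to 81.4% of the worm probes were detected in a channel, with 63.3% to 81.4% where DZN was in Cy3 and 49.7% to 66.2% where DZN was in Cy5, and the number of arrays limits the precision. Ratios of 2 arrays correlated across probes at -0.24 to 0.57, with a median of 0.13. Of 11 hypodermal marker genes, 9 were above background in at least 6 of 12 channels and grh-1 in none. The summed linear level of the 11, put on the log2 scale, was 15.14 to 15.59 in DZN channels and 15.10 to 15.46 in control channels. They include dpy-5 and dpy-13, themselves collagens known from body shape mutants. The bright dpy-5 had mean log2 levels of 14.75 in DZN and 14.67 in control channels, a large part of that sum. The median log2 ratio of the 11 was 0.09, with 8 above 0. Marker lists of body wall muscle, intestine, neurons, pharynx, germline, sperm and oocytes had median log2 ratios between -0.31 and 0.08, with 0 genes called by limma (adjusted p under 0.05) and 1 by the rank product, the kind of test the study used (the sperm gene spe-11, lower, named after its values were seen). The 6 sperm genes were at -1.02 to -0.07. DZN-Cy3 replicate 3 stood apart for the body shape collagens, so their values are also given without it.

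Every one of the 10 probes was above background in 6 of 6 DZN channels and in 6 of 6 control channels. No body shape collagen passed the test of DZN against control worms, limma with p-values adjusted over all worm probes by the Benjamini-Hochberg method (0 of 10 at adjusted p under 0.05, where 0.0178% of all probes were called). The rank product also called 0 of 10 (1.02% of all probes). At an unadjusted p under 0.05, 1 of 10 passed in limma, bli-2, which was lower in DZN worms (7.49% of all probes passed in that direction and 10.9% in either). The levels in DZN channels overlapped those in control channels for 10 of 10 genes, and 0.0978% of all probes had levels that did not overlap.

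In the mean over 6 arrays 8 of 10 body shape collagens had a log2 ratio of DZN over control below 0, against 49.2% of all probes. Their median log2 ratio was -0.16, against -0.01 for all genes. For 138 genes named col and a number, the large remainder of the collagen family, it was -0.13. By array the sets differed. With DZN in Cy5 (replicates 1 to 3 in order) the col genes had means of -0.17, 0.04 and 0.15, and the body shape collagens 0.08, -0.13 and 0.22. With DZN in Cy3 the col genes were at -0.69, -0.44 and 0.06, and the body shape collagens at -0.10, -0.13 and -0.75. Of the 138 col genes, 0 passed adjustment in limma. Before adjustment, limma gave 16 of them a p below 0.05 with a lower level in DZN worms (11.6%, against 8.25% of all genes). For 4 the level was higher with such a p (2.9%, against 3.26% of all genes). The rank product called 12 of the 138 col genes lower and 0 higher (0.516% of all probes lower, 0.502% higher). No body shape collagen had the same sign on all 6 arrays (0 of 10, against 5.17% of all probes). RNA came from whole worms, in which fewer cells of a type and less RNA per cell cannot be told apart.

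**Figure D1:**
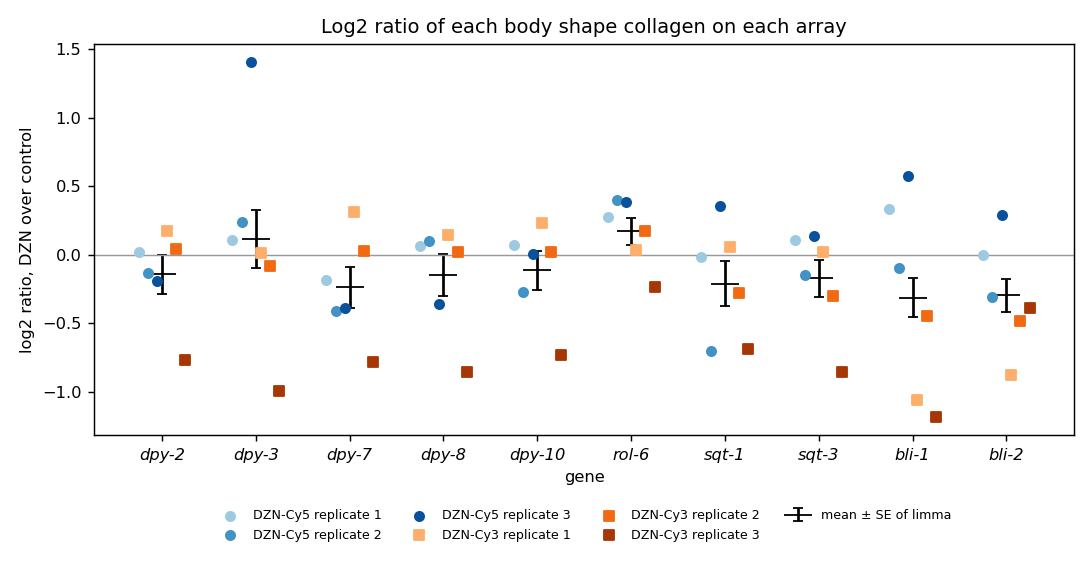
Log2 ratio of DZN over control (vertical axis) for each body shape collagen (horizontal axis) on each of 6 arrays, blue circles with DZN in Cy5 and orange squares with DZN in Cy3, and the limma mean with its standard error. The darkest squares, DZN-Cy3 replicate 3, lie below 0 for 10 of 10 genes, from -1.19 for bli-1 to -0.24 for rol-6.

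The first kind comprised 5 collagens of the annular furrows, the circumferential grooves of the cuticle, whose loss makes worms dumpy. For dpy-7 (F46C8.6), a furrow collagen often used as a marker of hypodermal expression, the log2 ratio was -0.18, -0.41 and -0.39 with DZN in Cy5 (replicates 1 to 3 in order, here and below), and 0.31, 0.02 and -0.79 with DZN in Cy3. Its normalized log2 intensity had a lowest, median and highest value of 12.99, 13.54 and 13.90 in DZN channels, and 13.31, 13.83 and 14.08 in control channels. DZN worms were thus lower on 4 of 6 arrays, and both arrays with a higher value had DZN in Cy3. The mean log2 ratio was -0.24 ± 0.15 (standard error of limma, n = 6 arrays, adjusted p = 0.6), with a 95% interval of -0.59 to 0.11, and it was -0.080 without DZN-Cy3 replicate 3.

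For dpy-2 (T14B4.6) the ratios were 0.02, -0.14 and -0.19 with DZN in Cy5, and 0.17, 0.04 and -0.77 with DZN in Cy3. Its log2 intensity ran from 13.90 over a median of 13.98 to 14.38 in DZN channels, and from 13.82 over 14.20 to 14.68 in control channels. The control channel of DZN-Cy3 replicate 3 held the highest of these 12 levels, and its DZN channel the lowest DZN level. The mean log2 ratio of -0.14 ± 0.14 (adjusted p = 0.734) had a 95% interval of -0.47 to 0.18, and it was 0.0013 without that array.

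dpy-8 (C31H2.2) had ratios of 0.06, 0.10 and -0.36 with DZN in Cy5, and 0.15, 0.02 and -0.86 with DZN in Cy3. DZN channels held levels from 12.69 over 13.33 to 13.78, and control channels from 13.19 over 13.37 to 13.72. DZN worms were higher on 4 of 6 arrays, while the mean log2 ratio lay below 0 at -0.15 ± 0.15 (adjusted p = 0.755, 95% interval -0.51 to 0.21), with the lowest value of each orientation on its replicate 3.

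dpy-10 (T14B4.7), whose mutants include both dumpy and roller alleles, had ratios of 0.07, -0.27 and 0.01 with DZN in Cy5, and 0.23, 0.02 and -0.74 with DZN in Cy3. Its levels were 13.26, 13.53 and 13.98 (lowest, median and highest) in DZN channels, and 13.36, 13.66 and 13.99 in control channels. The ranges lay almost on top of each other, and the mean log2 ratio was -0.11 ± 0.14 (adjusted p = 0.8, 95% interval -0.45 to 0.22). The platform annotation lists this probe under T14B4.19, a gene whose span overlaps that of dpy-10 in the RefSeq annotation and that has no probe of its own name, so the assignment of this probe to dpy-10 is uncertain. dpy-2 lies next to this pair on the same chromosome, and its ratio differed from that of dpy-10 by -0.20 to 0.13 on the 6 arrays.

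dpy-3 (EGAP7.1) varied most among the furrow collagens. Its ratios were 0.10, 0.24 and 1.41 with DZN in Cy5, and 0.01, -0.08 and -0.99 with DZN in Cy3. The levels ran from 10.94 over 11.37 to 12.34 in DZN channels, and from 10.45 over 11.20 to 12.43 in control channels. Replicate 3 gave the highest ratio in the one orientation and the lowest in the other, and the ratios had an SD of 0.77 over the arrays. The mean log2 ratio of 0.11 ± 0.21 (adjusted p = 0.874) had a 95% interval of -0.38 to 0.60, and it was -0.092 when DZN-Cy5 replicate 3 was left out and 0.27 when DZN-Cy3 replicate 3 was.

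**Figure D2:**
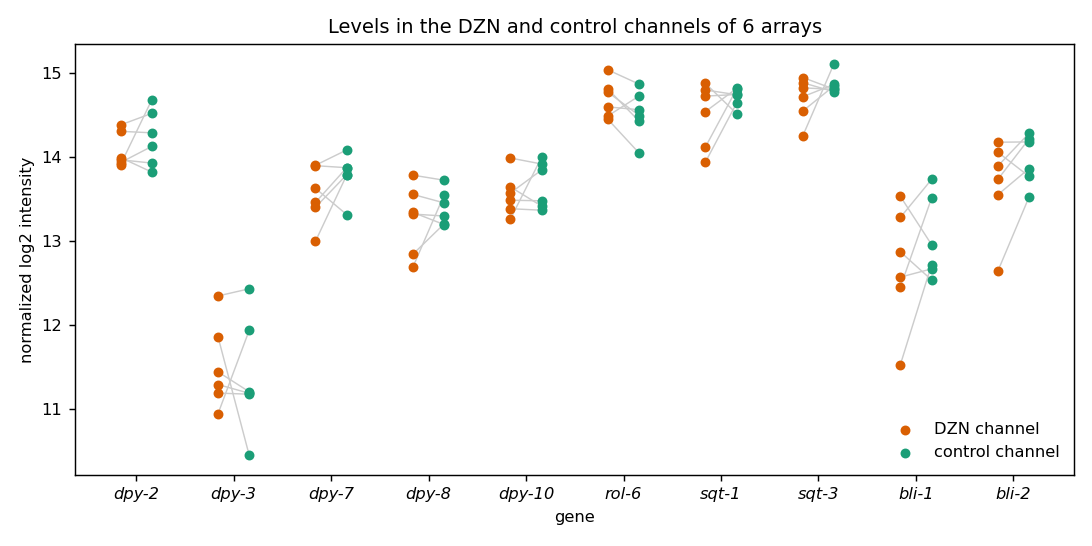
Normalized log2 intensity (vertical axis) of each body shape collagen (horizontal axis) in the DZN channel (orange, left) and the control channel (green, right) of 6 arrays, where a line joins the channels of 1 array. The ranges of DZN and control levels overlap for 10 of 10 genes, and levels of different genes come from different probes and are not compared.

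The second kind comprised rol-6, sqt-1 and sqt-3, collagens whose mutant alleles twist or shorten the worm. rol-6 (T01B7.7), whose dominant roller allele serves as a visible marker of transgenic worms, had ratios of 0.28, 0.40 and 0.38 with DZN in Cy5, and 0.03, 0.17 and -0.24 with DZN in Cy3. Levels were 14.45, 14.68 and 15.03 (lowest, median and highest) in DZN channels, and 14.04, 14.53 and 14.86 in control channels. It was higher in DZN worms on 5 of 6 arrays, but the mean log2 ratio of 0.17 ± 0.10 did not pass the test (adjusted p = 0.565), with a 95% interval of -0.06 to 0.40. Among the 10 genes rol-6 had the smallest SD over arrays, 0.24. Without DZN-Cy3 replicate 3, its only array below 0, its mean was 0.23.

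sqt-1 (B0491.2), a collagen that interacts genetically with rol-6, had ratios of -0.02, -0.70 and 0.36 with DZN in Cy5, and 0.06, -0.28 and -0.69 with DZN in Cy3. DZN levels ran from 13.94 over 14.63 to 14.87, and control levels from 14.51 over 14.74 to 14.81. The lowest 2 levels of all 12 were DZN levels, while the highest was a DZN level too. Its mean log2 ratio was -0.21 ± 0.16 (adjusted p = 0.666, 95% interval -0.59 to 0.17), and it was -0.066 when DZN-Cy5 replicate 2 was left out and -0.12 when DZN-Cy3 replicate 3 was. rol-6 had the higher ratio of these 2 genes on 5 of 6 arrays, by 1.10 on DZN-Cy5 replicate 2.

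sqt-3 (F23H12.4), a collagen already needed in the embryo, had ratios of 0.11, -0.15 and 0.14 with DZN in Cy5, and 0.02, -0.30 and -0.86 with DZN in Cy3. DZN levels were 14.25, 14.77 and 14.94 (lowest, median and highest), and control levels were 14.77, 14.82 and 15.11. Both extremes, the lowest DZN level and the highest control level, were on DZN-Cy3 replicate 3. The probe had some saturated pixels in 2 control channels, although no channel of any member had over 50% of them. The mean log2 ratio was -0.17 ± 0.13 (adjusted p = 0.664, 95% interval -0.48 to 0.14), and it was -0.053 without DZN-Cy3 replicate 3.

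The third kind comprised bli-1 and bli-2, collagens of the struts that join the layers of the adult cuticle, and these had the smallest unadjusted p-values of the 10. bli-1 (C09G5.6) had ratios of 0.33, -0.10 and 0.57 with DZN in Cy5, and -1.06, -0.45 and -1.19 with DZN in Cy3. DZN levels ran from 11.53 over 12.72 to 13.53, and control levels from 12.54 over 12.84 to 13.73. The mean was -0.31 ± 0.14 on the log2 scale, a 0.804-fold level in DZN worms (limma, adjusted p = 0.479, 95% interval -0.64 to 0.01), and -0.24 without DZN-Cy3 replicate 3. The orientations lay apart, with a mean of 0.27 with DZN in Cy5 and -0.90 with DZN in Cy3, a difference of 1.17 ± 0.28 (dye term of limma, adjusted p = 0.31).

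bli-2 (F59E12.12) had ratios of -0.0033, -0.31 and 0.29 with DZN in Cy5, and -0.88, -0.48 and -0.39 with DZN in Cy3. DZN levels were 12.64, 13.81 and 14.17 (lowest, median and highest), and control levels were 13.52, 14.02 and 14.28. It was lower in DZN worms on 5 of 6 arrays, all but DZN-Cy5 replicate 3. The mean was -0.30 ± 0.12, a 0.814-fold level in DZN worms, which did not pass adjustment (limma, adjusted p = 0.445), with a 95% interval of -0.58 to -0.01, and it was -0.35 without DZN-Cy3 replicate 3. Its orientations differed by 0.58 ± 0.24 (dye term of limma, adjusted p = 0.424). The unadjusted p of the dye term of limma was 0.0036 for bli-1 and 0.0476 for bli-2, the only members under 0.05. Over all probes 11.7% had a dye term with an unadjusted p under 0.05 and 0 passed adjustment.

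**Figure D3:**
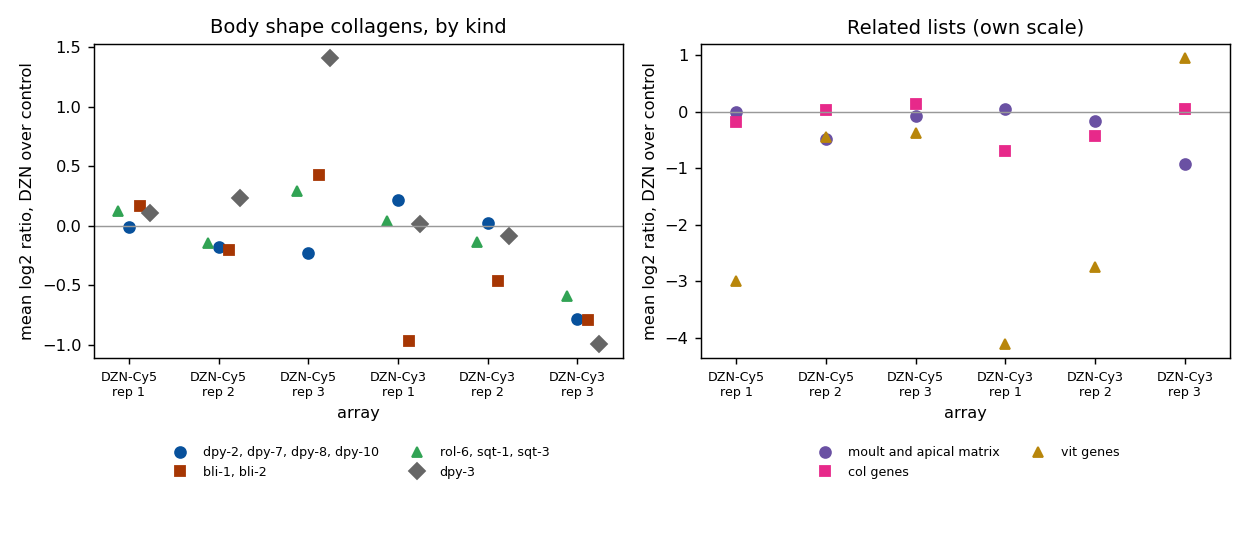
Mean log2 ratio of DZN over control (vertical axes, each panel with its own scale) on each of 6 arrays (horizontal axes) for the kinds of body shape collagen, with dpy-3 apart (left), and for related gene lists (right). The struts bli-1 and bli-2 lie at -0.97, -0.47 and -0.79 with DZN in Cy3, and the yolk protein (vit) genes run from -4.11 to 0.95.

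One array stood out among the 6. On DZN-Cy3 replicate 3, 10 of 10 were below 0 (49.5% of all probes) and 8 of 10 were below -0.5 (14.2% of all probes). That array held the lowest DZN level of 6 for 7 of the genes and the highest control level of 6 for 4, a count that DZN-Cy3 replicate 2 shared. Without it 5 of 10 genes had a mean below 0, against 8 of 10 with it, and dpy-2, dpy-8 and dpy-10 then had means of 0.0013, 0.0087 and 0.029. On the other arrays 2 to 7 of 10 genes were below 0, against 49.2% to 51.8% of all probes. Arrays were scanned at 3 photomultiplier settings, and the setting of DZN-Cy3 replicate 3 was shared with DZN-Cy5 replicate 3 alone. Within that setting, the only one that held both dye orientations, the mean of the 2 arrays was below 0 for 8 of 10 genes, from -0.61 for dpy-8 to 0.21 for dpy-3, while on DZN-Cy5 replicate 3 by itself 7 of 10 were above 0.

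dpy-2, dpy-7, dpy-8 and dpy-10, grouped after their values were seen, had nearly equal ratios on that array, from -0.86 to -0.74, with a mean of -0.79. On DZN-Cy3 replicate 2 their range was 0.02. Over the 6 arrays the Pearson correlation of any 2 of these 4 genes was 0.79 to 0.95, with a median of 0.90. Over all 45 pairs of the 10 genes it ran from -0.50 to 0.95 with a median of 0.57, and 5 pairs were negative. These correlations rest on 6 points from shared arrays, of which DZN-Cy3 replicate 3 lies far out for most genes. With the same 4 genes bli-2 had correlations of -0.50 (dpy-7) to -0.06 (dpy-10), and bli-1 of -0.07 (dpy-7) to 0.37 (dpy-10). Those of sqt-3 with the 4 genes were higher, from 0.58 (dpy-7) to 0.87 (dpy-10). bli-1 and bli-2 had a correlation of 0.86. The mean of the struts minus that of the 4 furrow collagens was 0.17, -0.02 and 0.66 with DZN in Cy5, and -1.18, -0.49 and -0.0017 with DZN in Cy3.

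**Figure D4:**
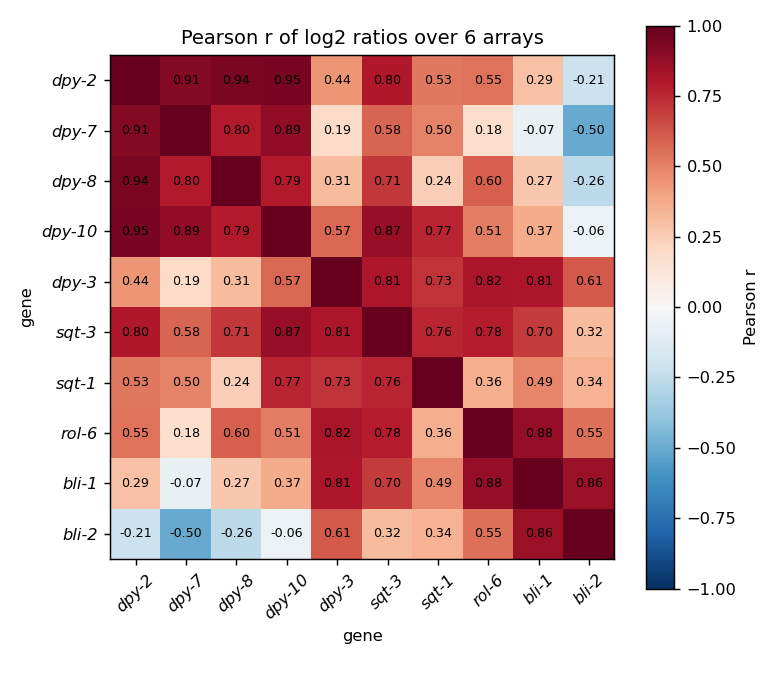
Pearson correlation of the log2 ratios of each pair of body shape collagens (both axes) over 6 arrays, blue for negative and red for positive. dpy-2, dpy-7, dpy-8 and dpy-10 form the block with values of 0.79 to 0.95, and bli-2 lies between -0.50 and -0.06 with them.

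The levels of the related lists on the same arrays give the setting of these values. A list of genes of moulting and of the apical matrix, which are also made before each moult, had 20 of 21 genes with a matched probe, and its mean ratio was 0.00, -0.48 and -0.08 with DZN in Cy5, and 0.04, -0.16 and -0.93 with DZN in Cy3. DZN-Cy3 replicate 3 was the lowest array for this list, as it was for 8 of the 10 body shape collagens. The 6 vit genes, which encode yolk proteins of adult hermaphrodites, had a mean of -2.99, -0.44 and -0.36 with DZN in Cy5, and -4.11, -2.75 and 0.95 with DZN in Cy3. Their mean was highest on DZN-Cy3 replicate 3, where vit-1 was at -0.91 and the other vit genes were above 0. Of the 6, 0 were called by limma and 4 were lower at an unadjusted p under 0.05 (8.25% of all genes). The rank product called 6 lower (0.516% of all probes), and the median log2 ratio was -1.64. The summed level of the vit genes ran from 11.40 to 15.73 in DZN channels and from 12.94 to 15.82 in control channels on the log2 scale, and 6 of 6 were above background in at least 6 of 12 channels. The part of larval or adult stage in the ratios of the body shape collagens was not tested.

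Other collagens known from body shape mutants formed a list of 11, all with a probe. Of these 11 0 were called by limma or by the rank product, 4 were lower and 0 higher at an unadjusted p under 0.05 (8.25% of all genes lower, 3.26% higher, by the brightest probe), and the median log2 ratio was -0.24. lon-3, a collagen whose loss gives long worms, was lower on 6 of 6 arrays, at -0.67 ± 0.20 (limma, adjusted p = 0.327). dpy-17, a dumpy collagen, was at -0.62 ± 0.21 (adjusted p = 0.375), with a mean of -1.41 with DZN in Cy5 and 0.18 with DZN in Cy3. rol-1, a roller collagen, was at -0.43 ± 0.17 (adjusted p = 0.437). For dpy-9, the furrow collagen outside the 10 genes, named after its values were seen, the mean ratio was -0.39 ± 0.20. Its ratios were 0.04, -1.05 and -0.46 with DZN in Cy5, and 0.12, 0.07 and -1.06 with DZN in Cy3.

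Among 19 genes that modify, cut or cross-link collagen, 0 were called, and the median was -0.08. At an unadjusted p under 0.05, 2 were lower (10.5%, against 8.25% of all genes) and 0 higher (3.26% of all genes). phy-2, a prolyl hydroxylase subunit that stabilizes the collagen helix, was at -0.48 ± 0.18 (limma, adjusted p = 0.402). bli-4, a convertase that cuts collagen precursors, was at -0.65 ± 0.26 (adjusted p = 0.441), with -2.48 on DZN-Cy5 replicate 1 and -0.11 to -0.54 on the other 5 arrays. kpc-1, another convertase of the furin kind, was at -0.18 ± 0.10 (adjusted p = 0.537) and above background in 1 DZN channel and 0 control channels.

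Of 14 regulators of the cuticle and of body size 0 were called, and the median was 0.10. At an unadjusted p under 0.05, 1 was lower and 1 higher (7.14% each, against 8.25% of all genes lower and 3.26% higher). lon-1, a secreted protein that limits body length, was at -0.56 ± 0.20 (limma, adjusted p = 0.395). elt-3, a GATA factor of the hypodermis, was at 0.33 ± 0.13 (adjusted p = 0.44) and grh-1, a Grainyhead factor of epithelia, at 0.21 ± 0.09 (adjusted p = 0.473) with no channel above background. In the list of moulting genes, 4 of 20 were lower and 0 higher at an unadjusted p under 0.05 (20% lower, against 8.25% of all genes), and the median was -0.27. Its members of smallest p were the kinase nekl-2 at -0.46 ± 0.12 (adjusted p = 0.282), the protease inhibitor-like gene bli-5 at -0.59 ± 0.16 (adjusted p = 0.305) and the astacin protease nas-36 at -0.53 ± 0.20 (adjusted p = 0.425). nekl-2 and bli-5 were lower on 6 of 6 arrays.

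Of 4 adult cuticle genes 2 had a matched probe. col-19, a collagen of the adult cuticle, had ratios of -1.53, 0.47 and 1.67 with DZN in Cy5, and -3.03, -2.81 and 0.91 with DZN in Cy3, with a mean of -0.72 ± 0.58 (limma, adjusted p = 0.68), and the rank product called it lower. bli-6 was at 0.07 ± 0.17 (adjusted p = 0.904), with a mean of 0.63 with DZN in Cy5 and -0.48 with DZN in Cy3. On DZN-Cy3 replicate 3 col-19 was thus above 0 and bli-6 at 0.08, while 10 of 10 body shape collagens were below 0. The mean of bli-1 and bli-2 had the sign of col-19 on DZN-Cy5 replicate 3 and DZN-Cy3 replicates 1 and 2 only.

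The genes whose 6 ratios were most like the mean of the 10 collagens were Y43F4A.1 (Pearson correlation 0.999 over 6 arrays), clec-26 (0.998), tag-335 (0.992), C36B7.6 (0.989) and Y54F10BM.12 (0.986), among 12876 genes above background in at least 6 of 12 channels. Of those genes 285, or 2.21%, had a correlation over 0.9. The ratios of the 5 named genes on DZN-Cy3 replicate 3 ran from -1.38 for tag-335 to -0.43 for clec-26.

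**Figure D5:**
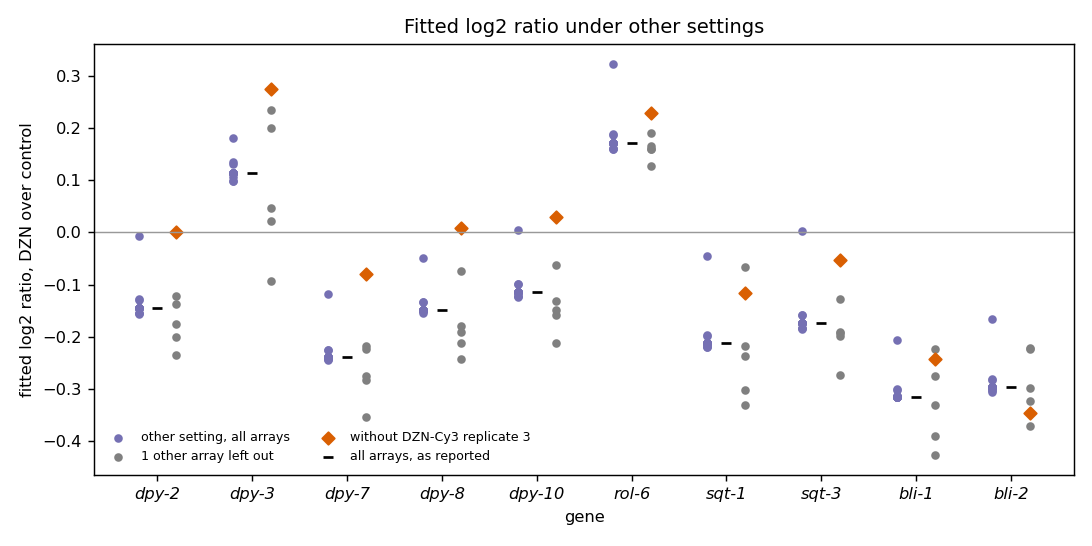
Fitted log2 ratio of DZN over control (vertical axis) of each body shape collagen (horizontal axis) as reported (dashes), under 14 other settings with all arrays (violet) and with 1 array left out (grey, and orange diamonds without DZN-Cy3 replicate 3). Without that array dpy-2, dpy-8 and dpy-10 lie at 0.0013, 0.0087 and 0.029.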

How the data were processed

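The authors deposited scanner files that hold the linear intensity of every spot and of its local background, without normalization. For each spot the deposited files state which percent of its pixels was saturated. They also carry a deposited quality score, a code of unstated meaning that was not used as a filter. A table of log2 ratios deposited by the authors was close to a loess fit without background correction, already turned to DZN over control (correlation 0.99969 to 0.99998 per array). The authors named loess and Aquantile of limma, and rank products. For the probe design, the build was not given in the sources used here.

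Spot means with the median local background were corrected by normexp (offset 50), normalized by loess with control spots at weight 0, then by Aquantile, with limma 3.58.1 (R 4.3.3). Control and empty spots (742 of 23232) were left out. Ratios were turned to DZN over control and fitted in lmFit and eBayes beside a dye orientation term (4 residual degrees of freedom, prior 3.56), two-sided, adjusted by Benjamini-Hochberg over 22490 probes (threshold 0.05). A level is the log2 intensity of 1 channel after normalization. The rank product was computed from its definition with a gamma approximation, since the package was not used here. The scripts were tested on simulated data. No 2 arrays held identical values.

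Probe names were updated through the RefSeq table of assembly WBcel235, used for names and neighbours only, and 21413 probes matched a gene. The brightest probe represents a gene. All 10 members are named. From each related list the 3 genes of smallest p are named, and the 5 genes most correlated with the members' mean. Marker lists were hypodermis, body wall muscle, intestine, neuron, pharynx, germline, sperm, oocyte and yolk. Members and lists were chosen with earlier results of these data known. Alternatives covered background, normalization, dye term, filter, test, replicate block and left-out arrays, and the mean local background and the scanner setting were added after seeing the data.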

Additional observations from a re-analysis of the deposited data

Results flagged for a closer look

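The control level of sqt-3 on DZN-Cy3 replicate 3 was 15.109 on the log2 scale and lay apart from the other control levels of 14.77 to 14.86, by 0.738 of the whole range of 6 levels (above Dixon's 95% limit for 6 values). It was the only value so far from its group among 30 groups of 6 values checked, the ratios and the DZN and control levels of 10 genes, and chance alone sets apart about 1 in 20 groups.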

How the results depend on the processing

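Under 20 other settings 0 of 10 body shape collagens were called in each, leave-one-out included (0 to 0), and adjusted p-values ran from 0.188 to 1. With arrays centred on the median in place of loess, dpy-10 and sqt-3 had log2 ratios of 0.0037 and 0.0032 and 6 of 10 genes were below 0, and the cause was not tested. The other 8 moved by over 1.5 times, to -0.0066 for dpy-2, 0.18 for dpy-3, -0.12 for dpy-7, -0.050 for dpy-8, 0.32 for rol-6, -0.045 for sqt-1, -0.21 for bli-1 and -0.17 for bli-2. Leaving out each array in turn gave -0.23 to 0.0013 for dpy-2, -0.092 to 0.27 for dpy-3, -0.35 to -0.080 for dpy-7, -0.24 to 0.0087 for dpy-8, -0.21 to 0.029 for dpy-10, 0.13 to 0.23 for rol-6, -0.33 to -0.066 for sqt-1, -0.27 to -0.053 for sqt-3, -0.43 to -0.22 for bli-1 and -0.37 to -0.22 for bli-2. The value above 0 for dpy-2, dpy-8 and dpy-10 came without DZN-Cy3 replicate 3, and the value below 0 for dpy-3 without DZN-Cy5 replicate 3. The median of the 10 genes ran from -0.24 to -0.03, and 0 to 1 genes had the same sign on every array left.

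Over all probes 4 were called. The count was 2 without background correction and 2 in the authors' table, 0 with plain subtraction, 30 with median centring (19 higher, 11 lower), 16 with robust and trended eBayes, 14 without dim probes, and 229 by rank product. With the replicate number as a block 0 probes and 0 of 10 body shape collagens were called. The deviations of same-numbered arrays from the means of their orientations had correlations of 0.15, -0.01 and -0.08, and those of other pairs -0.34 to 0.29. With 3 arrays per orientation these values cannot settle whether the numbers pair the samples. With the scanner setting as a block, added after seeing the data, 379 were called, none of them a body shape collagen. Leaving out each array gave 0 to 132, with 132 without DZN-Cy3 replicate 3, and the cause was not tested. The body shape collagens were above background in every channel.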
